A study of Mus musculus with 17 samples.

Results

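The levels of 10 genes that form 5 pairs were followed in the heart 5d post-MI. In each pair a muscle member is set against its general member, the paralogue used by most tissues: Rpl3l and Rpl3, Cox7a1 and Cox7a2, Cox6a2 and Cox6a1, Cox8b and Cox8a, and Slc25a4 and Slc25a5. These 10 genes were picked from the 31647 features of the count table with their levels in the infarct zone (IZ) and in sham hearts already known, so those levels and the ratios within pairs are described below without a test. All 10 genes passed the filter on low counts, as did 12301 features in all. The hearts came from male C57BL/6J wild-type mice aged 8 to 11 weeks. For 9 mice the left anterior descending artery (LAD) had been ligated for good, and the IZ was sampled 5d after surgery. The other 8 underwent sham surgery without ligation, and their left ventricle was sampled. Ligation without reperfusion leaves a large scar, and neither tissue was sorted into cell types.

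Each pair codes for alternative forms of the same protein. RPL3 and RPL3L are versions of a large-subunit ribosomal protein that sits close to the site where peptide bonds are made, and RPL3L is restricted to heart and skeletal muscle. COX7A, COX6A and COX8 are small nuclear-encoded subunits of cytochrome c oxidase, complex IV of the respiratory chain, and each has a heart and muscle form (COX7A1, COX6A2, COX8B) and a form found in liver and most other tissues (COX7A2, COX6A1, COX8A). SLC25A4 and SLC25A5 are ADP/ATP carriers, which exchange ADP and ATP across the inner mitochondrial membrane. SLC25A4 is the carrier of heart and skeletal muscle, and SLC25A5 is prominent in proliferating cells.

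Transcripts were measured by massive analysis of cDNA ends (MACE), which reads 3′ ends and counts each molecule by its identifier. Levels are given as CPM, counts scaled by library size. They were not divided by transcript length, because each transcript contributes its end, but ends of different genes may be caught with different efficiency. A ratio between genes is therefore best read as a change between libraries. Libraries held 1237675 to 4738307 counts. Replicate 1 of the IZ stood apart from the other 8: its mitochondrially encoded share was 19.5%, against 4.22 to 6.78% in those and 22.9 to 32.4% in sham, and its mean level of 12 cardiomyocyte markers was 11.02 log2 CPM, against 7.65 to 8.92 in those and 11.99 to 12.2 in sham. The fold changes of the muscle members and the ratio differences of the 5 pairs are therefore given with and without it. Other values, such as muscle shares and their SDs, include it unless stated. All 12 cardiomyocyte markers fell in the IZ, while 6 of 7 tested fibroblast markers and 5 of 5 tested leukocyte markers rose (edgeR quasi-likelihood test, Benjamini-Hochberg adjusted). Of 6 tested endothelial markers 2 fell and 0 rose, and of 6 tested smooth muscle and pericyte markers 2 fell and 3 rose. Over all tested features, 33.1% were called lower and 36.3% higher. The summed markers ranged from 74427 to 88315 CPM in sham and from 3423 to 34513 CPM in the IZ for cardiomyocytes, from 1532 to 2970 CPM and from 12650 to 20655 CPM for fibroblasts, and from 266 to 413 CPM and from 1564 to 4467 CPM for leukocytes. In whole tissue, fewer cells of a type and less RNA per cell cannot be told apart.

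The RefSeq promoter table (GRCm38.p6, the assembly of mm10) held windows from 250 bases before to 50 bases after the start for 8 of the 10 genes, all but Rpl3 and Cox6a2. The windows of the Cox7a and Cox8 pairs are shown, because COX7A is the pair whose general member differed most in the same direction as the muscle member and COX8 a pair whose general member overlapped between the groups. Capitals mark matches on either strand to the E-box CANNTG, the GC box GGGCGG and the TATA box TATAAA. The Cox7a1 window lies at chr7:30183921-30184220 on the plus strand, that of Cox7a2 at chr9:79759804-79760103 on the minus strand, that of Cox8b at chr7:140900397-140900696 on the minus strand, and that of Cox8a at chr19:7217567-7217866 on the minus strand. Each is written 5′ to 3′ on the strand of its gene.
Cox7a1: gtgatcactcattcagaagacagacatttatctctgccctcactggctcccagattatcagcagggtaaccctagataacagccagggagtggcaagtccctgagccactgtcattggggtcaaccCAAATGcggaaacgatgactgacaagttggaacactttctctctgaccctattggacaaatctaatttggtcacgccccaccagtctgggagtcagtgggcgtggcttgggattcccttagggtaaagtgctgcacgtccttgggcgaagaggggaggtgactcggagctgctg
Cox7a2: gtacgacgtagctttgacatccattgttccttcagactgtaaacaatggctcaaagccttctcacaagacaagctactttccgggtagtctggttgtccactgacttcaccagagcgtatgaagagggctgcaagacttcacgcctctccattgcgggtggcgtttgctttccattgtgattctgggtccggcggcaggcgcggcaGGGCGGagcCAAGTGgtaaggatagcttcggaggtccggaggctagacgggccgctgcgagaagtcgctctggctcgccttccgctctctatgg
Cox8b: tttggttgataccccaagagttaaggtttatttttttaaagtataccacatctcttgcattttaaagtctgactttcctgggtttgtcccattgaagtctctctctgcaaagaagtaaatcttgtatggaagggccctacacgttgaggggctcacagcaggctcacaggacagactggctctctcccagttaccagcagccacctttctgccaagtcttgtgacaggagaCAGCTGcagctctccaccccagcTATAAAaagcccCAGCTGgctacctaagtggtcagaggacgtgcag
Cox8a: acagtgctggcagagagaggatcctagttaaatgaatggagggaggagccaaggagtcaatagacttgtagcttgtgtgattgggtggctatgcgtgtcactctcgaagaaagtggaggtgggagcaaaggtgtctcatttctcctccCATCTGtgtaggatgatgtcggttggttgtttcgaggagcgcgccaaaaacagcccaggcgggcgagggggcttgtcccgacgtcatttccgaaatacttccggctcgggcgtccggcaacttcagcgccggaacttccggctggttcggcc
Of these 4 windows, that of Cox8b held a match to the TATA box, a motif present in 13.6% of the 32851 windows of the table. This match lies 4 bases after the annotated start and not before it. The window of Cox7a2 held a GC box, which 35.7% hold. All 4 held an E-box, as did 72.3% of all windows. None of the 4 held the MEF2 cores TATTTATA or TAAAAATA (1.70% and 2.72% of all windows), the ERR half-site core AAGGTCA (4.72%) or the NRF-1 core GCGCATGC (2.71%). Among the other members, Cox6a1 held 2 overlapping NRF-1 cores and 2 GC boxes, and Rpl3l, which has a pair of windows, held MEF2 core TAAAAATA and the ERR core in its second window. That window lies inside the gene, at chr17:24732435-24732734, and the window at the start of the gene held neither core. Slc25a4 and Slc25a5 each held a GC box. The GC content was 53.0% for Cox7a1, 48.3% for Cox8b, 56.7% for Cox7a2 and 56.0% for Cox8a, beside a median of 52.7% over all windows. A match is a run of letters and not a known binding site.

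Rpl3l lies at chr17:24727820-24736143 (mm10, plus strand, protein coding, 10 exons). Its level in sham was 271 CPM at the lowest, 422 at the median and 462 at the highest, and in the IZ 1.19, 3.46 and 54.4 CPM. The highest IZ value was that of replicate 1, and the other 8 libraries held only 5 to 24 counts of Rpl3l each. The mean CPM ± SD was 397 ± 68.8 over the 8 sham hearts and 10.1 ± 16.8 over the 9 infarct zones, or 4.57 ± 2.93 CPM without replicate 1 (SD, n = 8). The fitted log2 fold change was -5.35 ± 0.53 (SE), and -6.64 without replicate 1. Every IZ library lay below every sham library, as they did for 16.5% of the 12301 tested features.

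Rpl3 lies at chr15:80077791-80091868 (minus strand, protein coding, 10 exons) and moved the other way. Its lowest, median and highest levels were 32.7, 37.5 and 45.5 CPM in sham and 78.3, 125 and 149 CPM in the IZ, where replicate 1 was the lowest. The mean CPM ± SD was 38.0 ± 4.23 over the 8 sham hearts and 123 ± 20.8 over the 9 infarct zones, with a log2 fold change of 1.70 ± 0.12 (SE). Every IZ library lay above every sham library, as they did for 16.6% of tested features. The log2 ratio of Rpl3l to Rpl3 was 3.36 ± 0.31 in sham and -4.53 ± 1.72 in the IZ (SD), a difference of -7.89 and of -8.39 without replicate 1. All 9 IZ libraries held more Rpl3 than Rpl3l, while all 8 sham libraries held less. In replicate 1 of the IZ, 41.0% of the counts of the pair were Rpl3l (exact 95% binomial interval 35.9 to 46.2%), and in replicate 4 the share was 0.958% (0.353 to 2.07%). These intervals cover counting error only.

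The level of Rpl3 itself is uncertain, because 8 processed pseudogenes share its 3′ end at 95.5 to 99.8% identity in matches within its last 500 bases, and reads could be split among them. Rpl3-ps1, Rpl3-ps2 and Gm5879 took most of their counts. Together these copies held 6.12 ± 0.92 times the counts of Rpl3 in sham and 5.85 ± 0.58 times in the IZ (SD). With their counts added, the general side of the pair rose from 269 ± 39.3 to 843 ± 140 CPM (SD), a log2 difference of 1.64 against 1.69 without them. Rpl3l then made up 59.5 ± 2.74% of the pair in sham, in place of 91.1 ± 1.92%, and 1.53 ± 3.08% in the IZ, in place of 7.495 ± 12.7% (SD). Without replicate 1 of the IZ these IZ shares were 0.513 ± 0.32% and 3.31 ± 1.90% (SD). The ratio difference was -7.85, so the copies moved the level of the ratio in both groups alike and left its change in place. No copy was found for the other members except Slc25a5, whose 3 pseudogenes held about 2.15% of its counts in sham and 2.05% in the IZ. Syngr1, which overlaps Rpl3 on the opposite strand, held 3566 counts over all libraries, and whether strand was used in counting is not given in the sources used here.

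**Figure D1:**
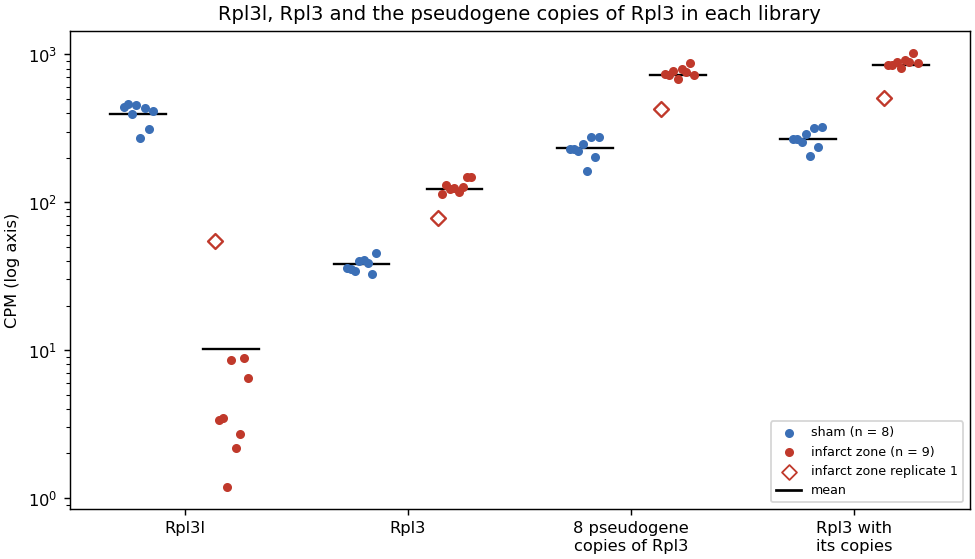
CPM on a log axis in each library for Rpl3l, Rpl3, the summed 8 pseudogene copies and Rpl3 with its copies, with sham (n = 8) in blue, IZ (n = 9) in red, IZ replicate 1 as an open diamond and means as bars. Rpl3 and its copies rose side by side, from 38.0 to 123 CPM and from 231 to 719 CPM, while Rpl3l dropped from 397 to 10.1 CPM.

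The COX7A pair differed from the others in that its general member also fell far. Cox7a1 (chr7:30184144-30186078, plus strand, protein coding, 4 exons) ranged from 1647 over a median of 2079 to 2472 CPM in sham, and from 37.2 over 63.6 to 616 CPM in the IZ. Replicate 1 held that highest value, and no other IZ library was above 129 CPM. The log2 fold change was -3.94 ± 0.47 (SE), and -4.85 without replicate 1. Cox7a2 (chr9:79755361-79759878, minus strand, protein coding, 4 exons) ranged from 1154 over 1232 to 1333 CPM in sham and from 184 over 263 to 467 CPM in the IZ, again highest in replicate 1. Its log2 fold change was -2.22 ± 0.17 (SE). Both genes lay below every sham library in all 9 IZ libraries, as did 16.5% of tested features. The ratio of the pair went from 0.73 ± 0.22 to -1.54 ± 0.83 (log2, SD), a difference of -2.27 and of -2.51 without replicate 1. This was the smallest of the 5 ratio differences, and replicate 1 (0.40) lay only 0.011 below the lowest sham library (0.41). The muscle share was 62.3 ± 3.58% in sham and 26.6 ± 12.4% in the IZ (SD).

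Cox6a2 (chr7:128205435-128206387, minus strand, protein coding, 3 exons) was the most abundant of the 3 muscle complex IV members. It ranged from 1997 over 2971 to 3677 CPM in sham, where replicate 8 was lowest, and from 55.3 over 114 to 1392 CPM in the IZ. Without replicate 1 the highest IZ value was 171 CPM. The log2 fold change was -3.60 ± 0.57 (SE), and -4.91 without replicate 1. Its partner Cox6a1 (chr5:115345642-115348981, minus strand, protein coding, 3 exons) ranged from 102 over 136 to 179 CPM in sham and from 97.1 over 151 to 185 CPM in the IZ, so the groups overlapped in 7 of the 9 IZ libraries. Its log2 fold change was 0.09 ± 0.13 (SE) with the scaling used here and 1.18 with scaling to total counts. The log2 ratio fell from 4.45 ± 0.29 to -0.16 ± 1.34 (SD), a difference of -4.61 and of -5.03 without replicate 1. The muscle form made up 95.6 ± 0.901% of the pair in sham and 45.8 ± 18.3% in the IZ (SD), and Cox6a1 exceeded Cox6a2 in 7 of 9 IZ libraries. In replicate 1 the muscle share was still 90.2% (exact 95% binomial interval 89.3 to 91.1%).

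Cox8b (chr7:140898945-140900446, minus strand, protein coding, 2 exons) was the steadiest of the muscle complex IV members in sham, with 1742 CPM at the lowest, 1939 at the median and 2112 at the highest. In the IZ these values were 39.5, 65.3 and 729 CPM, with the next highest library at 113 CPM. The log2 fold change was -3.75 ± 0.51 (SE), and -4.84 without replicate 1. Cox8a (chr19:7215153-7217616, minus strand, protein coding, 2 exons) ranged from 149 over 224 to 257 CPM in sham and from 116 over 167 to 229 CPM in the IZ. Only 2 of the 9 IZ libraries lay below the sham range. In sham, Cox8a held 149 to 160 CPM in replicates 1, 2 and 3 and 222 to 257 CPM in the other 5, and the labels give no batch that could be set beside this. Its log2 fold change was -0.26 ± 0.15 (SE), but 0.81 with scaling to total counts. The log2 ratio went from 3.25 ± 0.30 to -1.002 ± 1.13 (SD), a difference of -4.25 and of -4.60 without replicate 1, and the muscle share from 90.4 ± 1.75% to 33.9 ± 17.4% (SD). Cox8a exceeded Cox8b in 8 of 9 IZ libraries and in none of the sham libraries.

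Slc25a4 (chr8:46206797-46211284, minus strand, protein coding, 4 exons) was the most abundant member. It ranged from 7769 over 8452 to 9361 CPM in sham and from 390 over 518 to 2053 CPM in the IZ, or up to 665 CPM without replicate 1. The log2 fold change was -3.63 ± 0.31 (SE), and -4.08 without replicate 1. Slc25a5 (chrX:36795651-36798807, plus strand, protein coding, 4 exons) ranged from 147 over 192 to 213 CPM in sham and from 69.4 over 119 to 139 CPM in the IZ, with no overlap. Of all tested features, 16.5% lay below sham without overlap. Its log2 fold change was -0.69 ± 0.13 (SE), and scaling to total counts turned it to 0.39. The log2 ratio went from 5.52 ± 0.20 to 2.39 ± 0.65 (SD), a difference of -3.14 and of -3.33 without replicate 1. Of the 5 pairs this was the only pair in which the muscle member stayed the more abundant in all 9 IZ libraries: its share was 97.9 ± 0.285% in sham and 83.2 ± 4.89% in the IZ (SD).

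**Figure D2:**
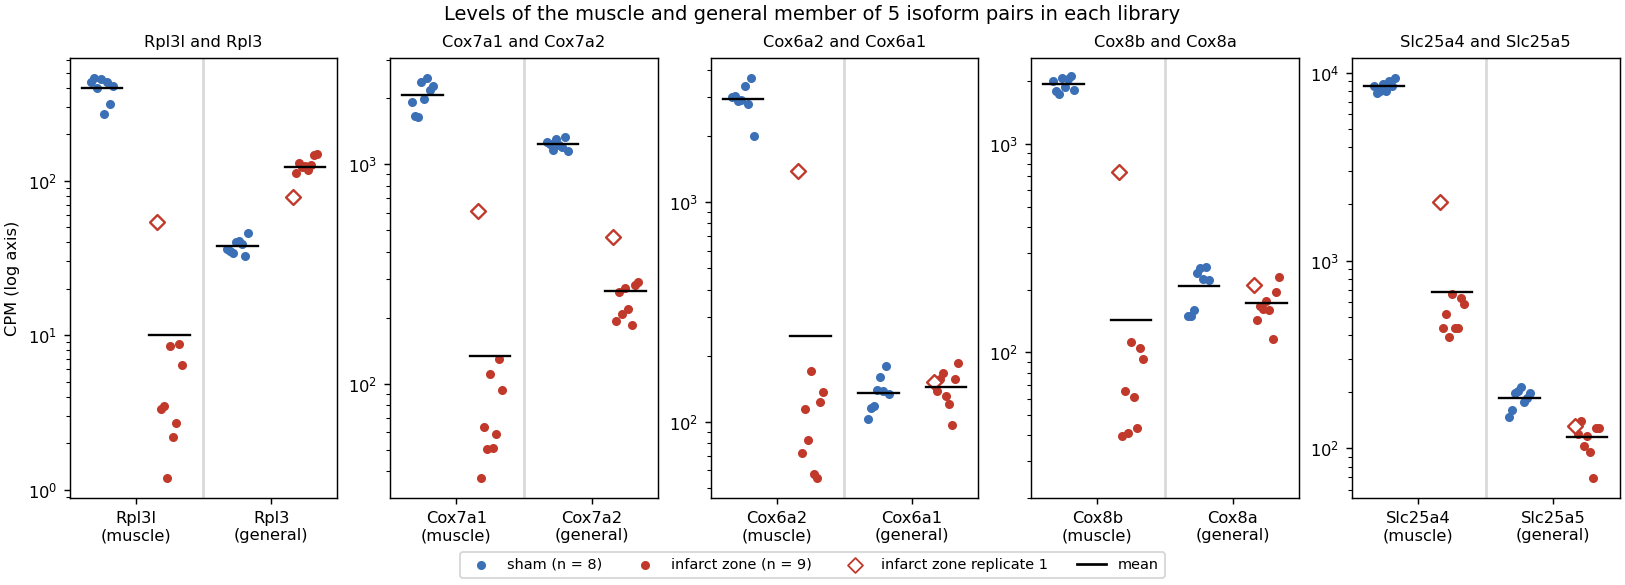
CPM on a log axis of the muscle and the general member of each pair in each library, with sham (n = 8) in blue, IZ (n = 9) in red, IZ replicate 1 as an open diamond and means as bars. The 5 muscle members, Cox7a2 and Slc25a5 were lower in every IZ library than in any sham library, Rpl3 was higher in every one, and Cox6a1 and Cox8a overlapped. Of all tested features, 16.5% were lower and 16.6% higher without overlap.

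Across the 10 genes, the edgeR fit called 8544 of the 12301 tested features (69.5%), 4074 of them lower (33.1%) and 4470 higher (36.3%) in the IZ. The same contrast was known when the members were chosen, so nothing is read from how many of them were called. In sham, the order of the muscle members was Slc25a4 (8481 ± 558 CPM), Cox6a2 (2967 ± 487), Cox7a1 (2062 ± 311), Cox8b (1933 ± 144) and Rpl3l (397 ± 68.8; mean CPM ± SD, n = 8). Cox7a1 and Cox8b differed by less than the SD of either. In the IZ the means were 684 ± 522, 245 ± 432, 135 ± 183, 143 ± 222 and 10.1 ± 16.8 CPM in the same order of genes (SD, n = 9). Without replicate 1 they were 513 ± 104, 102 ± 41.4, 74.4 ± 32.9, 70.1 ± 29.7 and 4.57 ± 2.93 CPM (SD, n = 8). These SDs hold variation between libraries that the genes of a library can share. They therefore do not settle the order of the 3 complex IV genes, which was not tested within libraries.

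The ratio differences ran from -7.89 for the RPL3 pair through -4.61 for COX6A, -4.25 for COX8 and -3.14 for the ADP/ATP carriers to -2.27 for COX7A (log2). The pooled SD within groups was 1.27, 0.999, 0.849, 0.496 and 0.627 in that order. The pairs were measured in the same libraries, so these SDs do not give the spread of a difference between pairs. Such differences were not tested. In all 5 pairs each of the 9 IZ ratios lay below each of the 8 sham ratios. The pairs were picked with these ratios known, and the share over all gene pairs was not computed. Of single tested features, 16.5% lay wholly below sham and 16.6% wholly above. The ratio of genes within a library does not depend on how libraries are scaled, unlike the fold change of a single gene. Ratio differences compare means of log2 values, so they need not equal the gap between the fitted fold changes of the partners. The summed CPM of both partners stood at 12.1% of sham for COX7A, 12.6% for COX6A, 14.8% for COX8 and 9.21% for the carriers. Without replicate 1 of the IZ these were 9.51%, 7.91%, 11.1% and 7.22%. In these 4 pairs the sum was therefore lower in the IZ with the scaling used here. Unlike the ratios, the sums depend on scaling: total counts alone moved the median log2 fold change of all features by 1.09. In whole tissue they also do not show whether 1 form made up for the other within a cell type. For the RPL3 pair the sum was 30.6% of sham from the genes alone but 128% when the pseudogene copies were added, so its direction depends on whose transcripts those copies count.

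**Figure D3:**
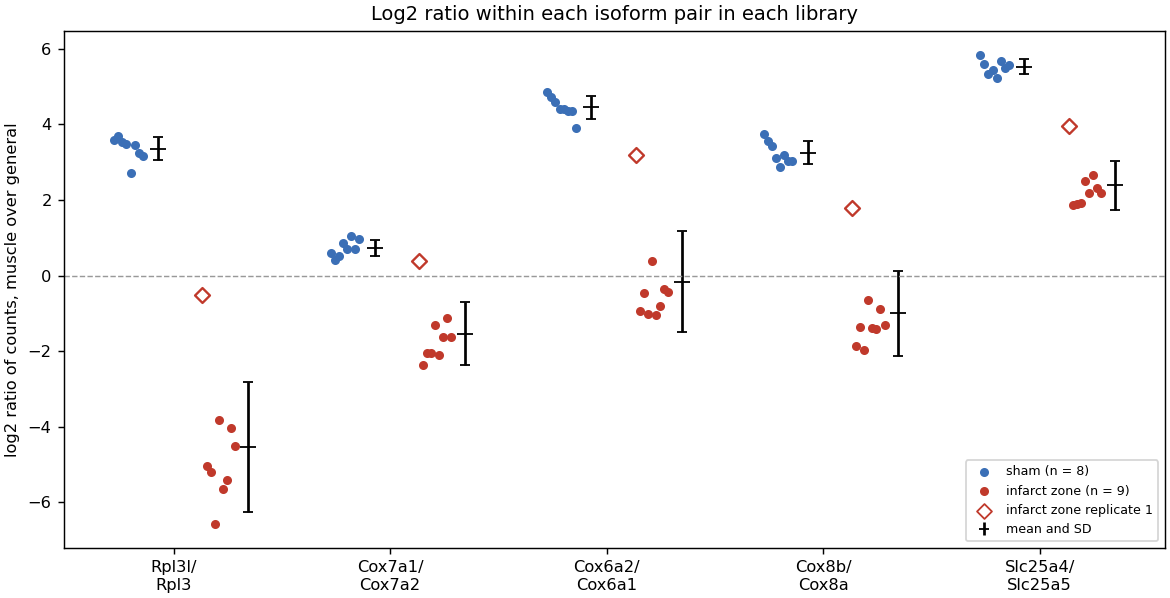
Log2 ratio of counts, muscle over general member, in each library for the 5 pairs, with sham (n = 8) in blue, IZ (n = 9) in red, IZ replicate 1 as an open diamond, and mean and SD beside each group. All IZ points lay below all sham points of their pair, and IZ replicate 1 was the nearest to sham in every pair. The share of all gene pairs with no overlap was not computed.

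To see how far the muscle members went down beside other heart muscle transcripts, each was set against the mean log2 CPM of the 12 cardiomyocyte markers in the same library. That marker level went from 12.1 ± 0.10 in sham to 8.58 ± 1.02 log2 CPM in the IZ (SD), a difference of -3.56. Relative to it, Rpl3l differed by -2.57 on the log2 scale (-2.68 without replicate 1) and lay below every sham library in 9 of 9 IZ libraries. Cox7a1 differed by -0.97, Cox6a2 by -0.96 and Cox8b by -0.94, below every sham library in 9, 8 and 9 of the 9 IZ libraries. For Slc25a4 the difference was -0.28 (-0.20 without replicate 1), and 4 of the 9 IZ libraries lay within the sham range. Read against the single markers, whose log2 fold changes ran from -4.19 for Tnni3 (troponin I) to -2.12 for Actc1 (cardiac actin), Rpl3l lay below all 12, and the other 4 muscle members lay within that range. These fold changes were fitted to counts, unlike the differences of mean log2 levels above, so both kinds of value need not match. DESeq2 gave a smaller difference for Rpl3l, -4.09, which was still below all 12 markers in that fit, where Tnni3 was lowest at -3.68. Against the same marker level the general members other than Cox7a2 were higher in all 9 IZ libraries than in any sham library. The differences ran from 2.86 for Slc25a5 to 5.24 for Rpl3. Cox7a2 was higher in 8 of 9, by 1.29 in the mean, and below every sham library in 1. The share of all tested features without overlap on this marker scale was not computed, so the counts of libraries are a description only. Because the marker level itself differed by -3.56, a gene with an unchanged level would come out higher by that amount. Slc25a5 and Cox7a2, whose own levels fell, therefore still appear as higher here.

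Variation within a group was not used to choose the members, so relations among libraries of a group were tested, with exact two-sided permutation of pairings and Benjamini-Hochberg adjustment over the 10 relations to the marker level and the 20 relations between pairs. Among the 8 IZ libraries other than replicate 1, the ratio rose with the cardiomyocyte marker level most closely for COX8 (r = 0.91, rho = 0.95, exact permutation p = 0.000347, adjusted p = 0.0035). The RPL3 pair (r = 0.85, rho = 0.76, exact permutation p = 0.0086) and COX6A (r = 0.80, rho = 0.74, exact permutation p = 0.0127) followed, both with an adjusted p of 0.042. COX7A (r = 0.76, rho = 0.71, exact permutation p = 0.0344, adjusted p = 0.086) and the carriers (r = 0.50, rho = 0.48, exact permutation p = 0.208, adjusted p = 0.297) did not pass. With replicate 1 included, all 5 passed (r = 0.91 to 0.98, n = 9), and without the 2 libraries farthest from the median of the marker level only COX8 did (r = 0.88, n = 7, exact permutation p = 0.0042). Without those 2 libraries r was 0.78 for the RPL3 pair and 0.77 for COX6A and COX7A, with an adjusted p of 0.105 each (exact permutation, n = 7), and 0.38 for the carriers. In sham no ratio passed (r = -0.22 to 0.62, n = 8), where the marker level spanned only 11.99 to 12.2 log2 CPM. The ratio and the marker level share a library, and both contain heart muscle transcripts.

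**Figure D4:**
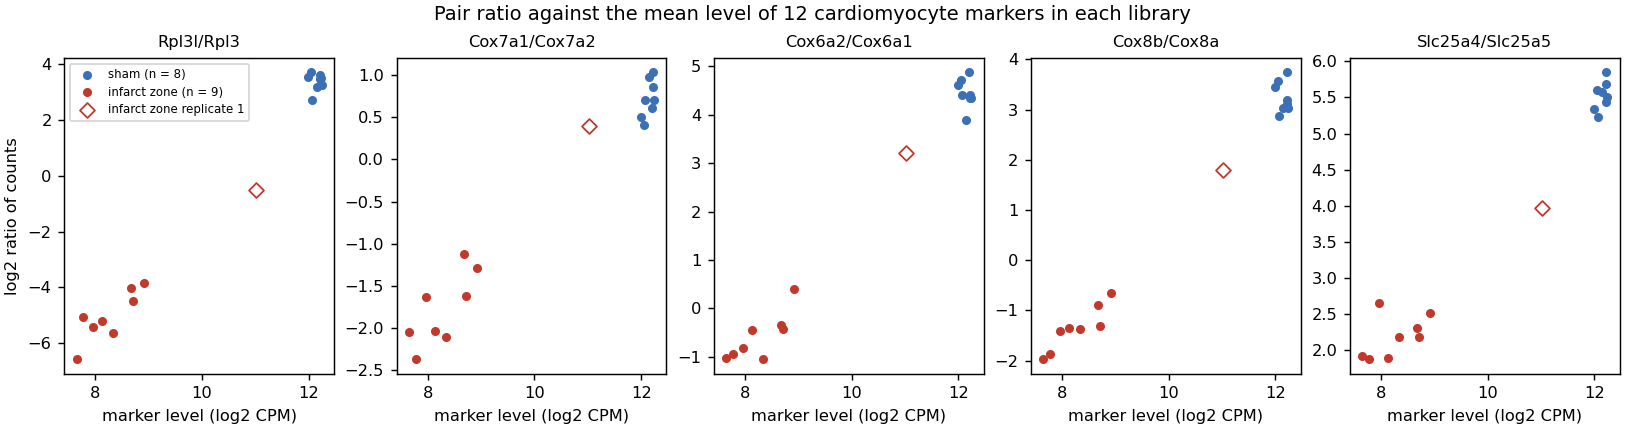
Log2 ratio of each pair against the mean log2 CPM of 12 cardiomyocyte markers in each library, with sham (n = 8) in blue, IZ (n = 9) in red and IZ replicate 1 as an open diamond. Replicate 1 (marker level 11.02) lies between the sham libraries and the other IZ libraries in every pair, and the points of the COX8 pair rise with the marker level within the IZ.

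Between pairs, the ratios of the 8 IZ libraries other than replicate 1 were positively related in all 10 combinations (r = 0.43 to 0.86), and 4 passed the exact permutation test, adjusted over the 20 relations with replicate 1 left out: COX6A with COX8 (r = 0.86, adjusted p = 0.0446), and RPL3 with COX8 (r = 0.84), COX7A with COX8 (r = 0.84) and RPL3 with COX6A (r = 0.83), each with an adjusted p of 0.0456. The 4 combinations with the carriers did not pass. With replicate 1 all 10 passed (r = 0.88 to 0.98, n = 9), and without the 2 libraries farthest from the median of the first ratio none did, with 4 at an unadjusted exact permutation p under 0.05. In sham, 3 of 10 passed when adjusted over the 20 relations of all libraries: RPL3 with COX8 (r = 0.81, rho = 0.95, exact permutation p = 0.0093, adjusted p = 0.0207), COX6A with COX8 (r = 0.80, rho = 0.69, exact permutation p = 0.0141, adjusted p = 0.0278) and, in the opposite direction, COX7A with COX6A (r = -0.75, rho = -0.83, exact permutation p = 0.0271, adjusted p = 0.0417). When adjusted together with the IZ relations that leave out replicate 1, the first 2 passed (adjusted p = 0.0456 and 0.0471, exact permutation) and COX7A with COX6A did not (adjusted p = 0.0775, exact permutation). Without the 2 farthest libraries these 3 kept r of 0.81, 0.87 and -0.82 but none passed. In each of the ratios in these 3 relations, sham replicates 1, 2 and 3 lay wholly apart from sham replicates 4 to 8. They were higher for RPL3, COX6A and COX8 and lower for COX7A. The permutation treats the 8 sham hearts as exchangeable, and relations within these sets of replicates were not tested. The ratios of different pairs share a library, and each contains a heart muscle transcript. Whether they are related beyond the cardiomyocyte marker level was not tested.

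The other genes of the same complexes were read from the fit over all genes, which called 33.1% of tested features lower and 36.3% higher. Of 12 tested nuclear complex IV subunits other than the members, 10 fell and 1 rose, with a median log2 fold change of -2.44 beside 0.05 over all tested features. Cox5a had the lowest value (-2.89 ± 0.23, SE, edgeR adjusted p = 1.7e-10) and Ndufa4l2 the highest (0.45 ± 0.15, adjusted p = 0.011). Cox7a1, Cox6a2 and Cox8b lay below all 12, Cox7a2 lay among them with 7 lower and 5 higher, and Cox6a1 and Cox8a lay above 11 of the 12. The 3 mitochondrially encoded subunits also fell, with mt-Co3 at -3.31 and mt-Co2 at -3.04. Of 30 other tested mitochondrial carriers, 19 fell and 4 rose (median -0.99), from Slc25a34 (-4.00) to the calcium-regulated ATP-Mg/phosphate carrier Slc25a24 (1.97), although scaling to total counts gave 11 lower and 12 higher. Slc25a4 lay above 2 of these 30 and Slc25a5 above 17.

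Ribosomal proteins moved differently. Of 77 other tested cytosolic ribosomal proteins, 71 rose and 0 fell in the edgeR fit (0 fell at an unadjusted p under 0.05 as well), DESeq2 called 0 lower, and scaling to total counts made it 77 that rose. Their median log2 fold change was 0.70, from Rpl36 (-0.17 ± 0.10, not called) to Rpl10 (1.41 ± 0.12, SE). Over all tested features, 36.3% were called higher and 33.1% lower. The 1.70 of Rpl3 was above all 77, and the -5.35 of Rpl3l was below all 77. Many ribosomal protein genes have processed pseudogenes as well, so their counts are uncertain in the same way. Of 5 other tested ribosomal protein paralogues 2 rose, with Rpl22l1 highest (1.01 ± 0.17) and Rpl7l1 lowest (-0.04 ± 0.11, SE).

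**Figure D5:**
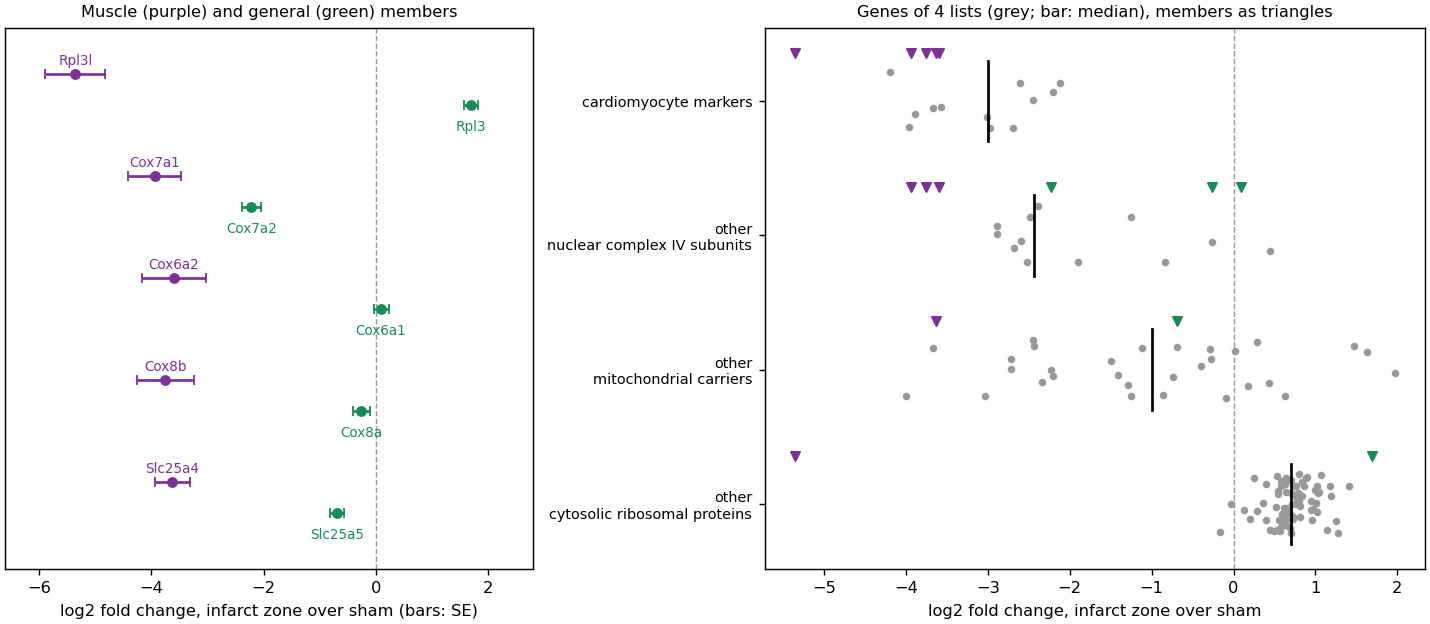
Log2 fold changes of IZ over sham: on the left the muscle (purple) and general (green) members with SE, on the right the genes of 4 lists in grey with their medians as bars and the members as triangles. Rpl3l lies outside both the cardiomyocyte markers and the ribosomal proteins, and Rpl3 lies above all 77 ribosomal proteins.

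A further 10 pairs of a muscle and a general form were measured in the same way. They too were listed with earlier results of these data known, and Actn2 is also one of the 12 cardiomyocyte markers, so their counts are a description. The ratio was lower in the IZ in 10 of 10, with a median difference of -5.23, from -6.33 for the creatine kinases Ckm and Ckb to -1.29 for the glycogen phosphorylases Pygm and Pygb. In 8 of the 10 no IZ library overlapped with sham, and the exceptions were Ckmt2/Ckmt1 and Pygm/Pygb. In both, replicate 1 was the only IZ library that did not lie below every sham library. Ckmt1 did not pass the filter and held 1 to 12 counts per library, with 1 in replicate 1 of the IZ. The share over all gene pairs was not computed, and of single tested features 16.5% lay wholly below sham. All 10 muscle genes fell, while 7 of 9 tested general genes rose and 2 fell (edgeR, adjusted), beside 33.1% of all tested features that were called lower and 36.3% higher. Those that fell were Pygb (-2.19) and the phosphofructokinase Pfkl (-0.42), and with scaling to total counts alone Pfkl turned direction and was called higher. The largest rises were those of the actinin Actn1 (2.90), the filamin Flna (2.36) and the elongation factor Eef1a1 (1.80). Like Rpl3, Eef1a1 and the enolase Eno1 have copies with matching 3′ ends, which held 39.9% and 172% of the counts of the gene itself in sham. Pygb came close to Cox7a2 (-2.22), and no other general gene of these pairs had a log2 fold change below -2.

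Markers of other muscle and of fat were checked, since Cox7a1, Cox8b and other muscle members are also transcribed in skeletal muscle or brown fat. Among 8 skeletal muscle markers, Myh4 and Myog had no count in any of the 17 libraries and Myh2 at most 1, and the summed level was 0.792 to 25.1 CPM in sham and 7.36 to 18.5 CPM in the IZ. Of the 2 that passed the filter, the troponin gene Tnnt3 rose, with a log2 fold change of 3.18 ± 0.47 (SE, edgeR adjusted p = 2.8e-06) at means of 0.476 CPM in sham and 4.799 CPM in the IZ, and Tnni2 was at 1.02 ± 0.46 (SE, adjusted p = 0.053). Among 7 fat markers, Ucp1 had at most 1 count and Lep at most 2, and the summed level was 45.8 to 87.5 CPM in sham and 3.37 to 216 CPM in the IZ. Cidea, which made up most of it in sham, fell by 2.47 on the log2 scale. No other fat marker passed the filter, so none of the others was tested. The highest IZ sum of 216 CPM lay above the sham range and came from a library other than replicate 1 (28.6 CPM). The part of these skeletal muscle and fat markers in the levels of the members was not tested, nor was that of the fibroblast and leukocyte markers in the levels of the general members.

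Finally, the genes most alike to each member were sought by the correlation of log2 CPM after the group means were taken off, over the 17 libraries, among 9355 genes whose mean level reached 10 CPM. These values are descriptions, and replicate 1 of the IZ weighs on them. Rpl3l was most like the mitochondrial creatine kinase Ckmt2 (r = 0.96) and Hfe2 (r = 0.96). Cox7a1 was most like Ndufs7 and Myl3 (both r = 0.98), Cox6a2 like Ndufs6 and mt-Co3 (both r = 0.99), Cox8b like Fabp3 and Myl3 (both r = 0.99), and Slc25a4 like Ckm and Myl3 (both r = 0.99). Cox7a2 was most like Ndufa3 (r = 0.96) and Cox8b (r = 0.96). The nearest genes of the other general members had r of 0.85 to 0.92: the pseudogenes Gm10288 (r = 0.90) and Gm5963 (r = 0.89) for Rpl3, the pseudogenes Rpl15-ps3 (r = 0.92) and Gm14513 (r = 0.90) for Cox6a1, Ndufa7 (r = 0.89) and Hsd17b10 (r = 0.88) for Cox8a, and Imp4 (r = 0.87) and Rpl15 (r = 0.85) for Slc25a5. Without replicate 1 the first neighbour was the same for 6 of the 10 members, and it became Ndufb3 for Rpl3, Atp5b for Cox7a2, Idh3b for Cox8a and Rpl15 for Slc25a5. Within pairs, the correlation between partners was 0.92 for COX7A and -0.47 for RPL3, but 0.77 and 0.40 without replicate 1. Among the 10 combinations of muscle members it was 0.89 to 0.98, and 0.61 to 0.92 without replicate 1.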

How the data were processed

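RNA of 8 sham left ventricles and 9 infarct zones was sequenced by MACE. The authors deposited raw counts per gene, with no normalization: unique molecular identifiers served to take out PCR duplicates, and after trimming (Cutadapt) reads were aligned to mm10 and assigned to genes by HTSeq. The submitters' processing notes also name bcl2fastq, Bowtie2 and DESeq2. The annotation release and the handling of strand and of reads with several locations are not given in the sources used here. All 17 columns were used, and groups and replicate numbers came from the sample titles. Nothing in the labels ties a heart to a batch. The 136 pairs of libraries all differed beyond sampling, with a chi-square per degree of freedom of 2.41 to 252. The table held 35 merged groups of overlapping genes, which were kept in library sizes.

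Counts were fitted with edgeR 4.0.16 in R 4.3.3 (filterByExpr with a minimum of 10 counts, TMM factors 0.613 to 1.54, quasi-likelihood F-test, two-sided, no covariates, Benjamini-Hochberg threshold 0.05). CPM values use TMM-scaled library sizes, and log2 CPM a prior count of 1. Pair ratios are log2 of counts, each with a pseudocount of 0.5. Standard errors were derived from the F statistic. Totals of 1237675 to 4738307 counts set the precision, and 8 of the 9 infarct zone libraries held 5 to 24 counts of Rpl3l. The members, lists and pairs were chosen with earlier results of these data known, and members' differences between groups were not tested. Relations within groups used all 40320 or 362880 pairings of libraries. Copies of 3′ ends were sought with BLAST 2.17.0 in GENCODE M21 transcripts (last 500 bases, matches of at least 100 bases at 95% identity), and adding their counts was chosen after seeing the data. Python 3.11.15, NumPy 2.4.6, pandas 2.3.3, SciPy 1.17.1 and Matplotlib 3.10.9 were used. The fit and the permutation test were tested on simulated data.

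Named genes were the members, the tested gene with the highest and lowest log2 fold change of each list, single markers that bear on a member, both genes of each further pair, and the 2 genes most alike to each member. The names Gm5879, Rpl3-ps1, Rpl3-ps2 and Syngr1 fall outside this rule and were chosen after their values were seen. Of the further pairs, that of Cpt1b, which had no feature of its own, was not analysed here, and 1 other is not reported here. Alternatives were DESeq2 size factors, upper quartile and total count scaling, DESeq2 1.42.0 (Wald test), the filter left out or a minimum mean of 50 counts, removal of mitochondrially encoded features, thinning to the smallest total, a pseudocount of 1, group medians, summed counts, a replicate block, and leaving out libraries.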

Additional observations from a re-analysis of the deposited data

Results flagged for a closer look

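Within each group, the highest and lowest library was compared with the others for the 10 members, the 5 pair ratios and the cardiomyocyte marker level. This made 32 sets of libraries. Chance alone would set apart about 5% of separate sets. These sets share libraries, and the ratios are built from the members, so the number set apart cannot be held against that rate. In 14 of the 32 sets a library stood apart from the rest, and in 13 of these it was replicate 1 of the infarct zone. On the log2 CPM scale its values were 5.77 for Rpl3l, 9.27 for Cox7a1, 10.4 for Cox6a2, 9.51 for Cox8b, 11.004 for Slc25a4 and 8.87 for Cox7a2, each above the other 8 infarct zone libraries, and 6.30 for Rpl3, below them. Its log2 ratios were -0.52 for the RPL3 pair, 0.40 for COX7A, 3.20 for COX6A, 1.80 for COX8 and 3.97 for the ADP/ATP carriers, and its cardiomyocyte marker level was 11.02 log2 CPM, all on the side of the sham libraries. Cox6a1, Cox8a and Slc25a5 of the same library did not stand apart. The other library was replicate 8 of sham, whose Cox6a2 level of 10.96 log2 CPM lay below the other 7. What set these libraries apart was not tested.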

How the results depend on the processing

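The 332 alternative values of the pair ratio differences, further pairs included, moved by less than the spread between replicates. Leaving out single libraries gave ranges of -8.39 to -7.64 for the RPL3 pair, -2.51 to -2.16 for COX7A, -5.03 to -4.50 for COX6A, -4.60 to -4.13 for COX8 and -3.33 to -3.07 for the carriers. Single genes depended on scaling: with total counts alone the median log2 fold change of all features was 1.14 in place of 0.05, 9203 features were called higher and 1524 lower, and values became 2.79 for Rpl3, -3.04 for Cox7a1, -1.18 for Cox7a2, 1.18 for Cox6a1, 0.81 for Cox8a, -2.65 for Slc25a4 and 0.39, of opposite sign, for Slc25a5. That scaling also gave 2 other nuclear complex IV subunits called higher, and 11 other carriers lower and 12 higher. A minimum mean of 50 counts left fewer features to test and gave 5239 calls, 2747 higher and 2492 lower, with 10 carriers lower and 2 higher. Rpl3l was -4.09 in DESeq2. The omission of single libraries gave ranges of -6.64 to -5.15 for Rpl3l, -4.85 to -3.79 for Cox7a1, -4.91 to -3.45 for Cox6a2, -4.84 to -3.61 for Cox8b, and 0 to 1 ribosomal proteins called lower, the 1 without sham replicate 5. Of the relations to the marker level, 5 passed with all libraries, 3 without infarct zone replicate 1 and 1 without the 2 farthest libraries. Of those between pairs, 13 passed with all libraries, 6 without replicate 1 and 0 without the 2 farthest (6 at an unadjusted exact permutation p under 0.05). The causes were not tested.

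Groups share replicate numbers, but same-numbered libraries did not deviate together (correlations of -0.22 to 0.13, 1 of 8 over 0.1), so the numbers were not taken as pairs. With the replicate number as a block, 8079 features were called and Cox6a2 was -4.65. Among the 10 members depth limits Rpl3l most, at 5 to 24 counts in 8 of the 9 infarct zone libraries.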
